A study of Mus musculus with 2 samples.

Results

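In a sort of immune cells from the brains of Disc1 locus impairment mice and their wild-type littermates there were 488 cells that carried a cell cycle program but little RNA of the granule proteases of early myeloid progenitors. They were chosen from 14849 cells by their RNA. A member had at least 3 of the 7 cycle genes Mki67, Top2a, Cenpf, Birc5, Ube2c, Pbk and Cdk1 detected, and Mpo, Elane, Prtn3 and Ctsg together made up under 0.2% of its unique molecular identifiers (UMIs, 1 per captured RNA molecule). Members in which S100a8 and S100a9 made up 3% or more of the UMIs are described apart from the rest. Wild-type mice contributed 46 members and mutant mice 442.

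The study compared wild-type littermates (Disc1 WT/WT, here WT) with mice homozygous for a locus impairment (LI) allele of this gene (Disc1 LI/LI, here LI). All were 23 weeks old and otherwise untreated. The paper reports mice of either sex for its experiments. Here Xist, expressed in female cells, had 2 UMIs in WT and 5 in LI cells, and the Y-linked Ddx3y had 3125 and 2422. These are levels of male cells. The allele is present in all cells of the animal, so blood and bone marrow cells carry it as well as microglia. Whole brains of 6 mice per genotype were pooled and dissociated with actinomycin D present, which blocks transcription during handling, and cells in a CD45-low, CD11b-positive gate went into 1 droplet library per genotype. Each genotype is therefore 1 library, no difference between genotypes has a replicate check, and every interval given here is a 95% interval that covers counting error only.

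A dividing cell first copies its DNA with the licensing and fork proteins, then condenses and segregates its chromosomes with the mitotic cyclins, kinases, kinesins and kinetochore proteins. In the bone marrow, granulocyte and monocyte precursors divide through several stages before they become non-dividing neutrophils or monocytes. The primary granule proteases Mpo, Elane, Prtn3 and Ctsg mark the early stages, secondary granule proteins such as Camp, Ngp and Ltf a middle stage that still divides, and gelatinase granule proteins and chemokine receptors the late, non-dividing stage. Microglia, the resident macrophages of the brain, renew themselves locally and divide rarely in the adult.

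The WT library held 7032 cells after removal of barcodes under 200 genes or over 10% mitochondrial UMIs, with a median of 4235 UMIs per cell, and the LI library held 7817 cells with a median of 4566 UMIs. Disc1 itself (chr8:125054195-125261858, mm10) had 642 UMIs in WT cells, 19.1 counts per 1000000 UMIs (CPM, interval 17.7 to 20.6), and 22 UMIs in LI cells, 0.461 CPM (0.289 to 0.698). Among the members the same gene had 7 UMIs in WT and 0 in LI, where the interval reaches 0.559 CPM. The libraries had 12 barcode sequences in common, of which 1 belonged to a member.

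Members were 0.654% of WT cells (0.479% to 0.872%) and 5.65% of LI cells (5.15% to 6.19%). Cycling cells inside the progenitor gate, at 0.2% or more protease UMIs, numbered 8 of 54 cycling cells in WT (14.8%) and 201 of 643 in LI (31.3%), so most cycling cells of both libraries lay outside it. Among the members, 1 of 46 WT cells (2.17%, 0.0550% to 11.5%) and 173 of 442 LI cells (39.1%, 34.6% to 43.9%) were S100-high. Members were deep cells, with a median of 9796 UMIs in WT and 14727 in LI, and in LI they held 13.8% of all UMIs. Depth bears on how many cycle genes are detected. With every cell thinned to 2000 UMIs and shallower cells left out, the same rule took 0.420% of WT cells and 4.07% of LI cells.

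**Figure D1:**
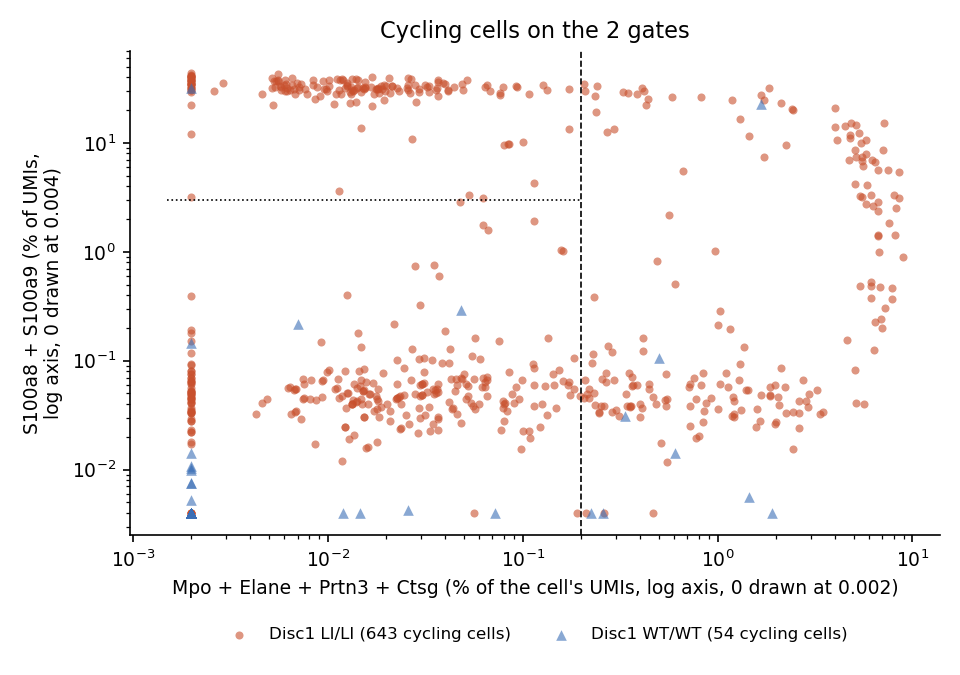
Each point is a cycling cell, drawn by the share of its UMIs from the 4 progenitor proteases (horizontal, log axis) and from S100a8 and S100a9 (vertical, log axis), with LI and WT in separate colors and the limits of 0.2% and 3% as lines. The S100 limit falls in a sparse zone with 14 LI members between 1% and 10%, whereas the protease limit falls in a continuous range with 81 LI cycling cells between 0.1% and 0.4%.

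The S100 limit fell where few members lay. In LI the S100-high members had a median of 32.2% of their UMIs from S100a8 and S100a9, the alarmin pair that fills neutrophil cytosol, and the S100-low members a median of 0.0491%. The lowest S100-high member stood at 3.09% and the highest S100-low member at 2.89%. The protease limit cut through a continuum. The highest LI member had 0.198% and the lowest cycling cell beyond the limit 0.206%, while in WT the neighbors were 0.0724% and 0.224%. Of the members, 40 LI and 9 WT cells had exactly 3 cycle genes, and 227 and 16 had all 7. Just under the limit, 90 LI and 11 WT cells outside the gate had 2 cycle genes.

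The cycle genes of the rule were abundant in the members of both genotypes, which the rule made certain. Mki67 (chr7:135689784-135716361), which coats mitotic chromosomes, was detected in 91.3% of WT members at 993 CPM (909 to 1083) and in 93.4% of LI members at 500 CPM (483 to 517). Top2a (chr11:98992943-99024189), the topoisomerase that untangles replicated DNA, stood at 966 CPM in WT and 637 CPM in LI members. Cenpf (chr1:189640606-189688086), a kinetochore protein, stood at 680 and 302 CPM. Birc5 (chr11:117849251-117855743), a subunit of the chromosomal passenger complex, had 397 and 539 CPM, and Ube2c (chr2:164769898-164778822), the ubiquitin-conjugating enzyme of the anaphase promoting complex, 571 and 788 CPM. Pbk (chr14:65805837-65817822), a mitotic kinase, had 140 and 118 CPM. Cdk1 (chr10:69335146-69352938), the kinase that drives entry into mitosis, was level at 229 CPM (190 to 275) and 240 CPM (228 to 252). These levels describe cells that the same genes chose, and the mixture of lineages differed between the libraries. Mki67 ranged from 379 CPM in the neutrophil-like members through 587 CPM in the LI monocyte-like members to 1171 CPM in the WT microglia-like members, and within the monocyte-like cluster the 15 WT members stood at 1075 CPM (940 to 1224).

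The promoters of these genes are shown because a replication group and a mitotic group of cycle genes had different levels in the cycling cells of different lineages, and short promoter motifs are known for each group. Background knowledge links CCAAT boxes (letters CCAAT) to many cell cycle genes, the cell cycle homology region (CHR, letters TTTGAA or TTCGAA) to mitotic genes, and E2F words (letters TTTGGCGC, TTTCGCGC, TTTCCCGC or TTTGCCGC) to replication genes. Sequences are the plus or minus strand upstream of the gene from RefSeq GRCm38.p6, read 5′ to 3′ in the direction of transcription. Capitals mark matches of these motifs on either strand, so that ATTGG is CCAAT and TTCAAA is TTTGAA on the other strand.
Top2a chr11:99024190-99024389, minus strand: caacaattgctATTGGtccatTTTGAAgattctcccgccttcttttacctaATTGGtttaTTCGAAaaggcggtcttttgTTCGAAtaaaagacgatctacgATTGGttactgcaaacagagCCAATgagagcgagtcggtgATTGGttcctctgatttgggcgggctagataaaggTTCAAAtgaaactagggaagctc
Cdk1 chr10:69352939-69353062, minus strand: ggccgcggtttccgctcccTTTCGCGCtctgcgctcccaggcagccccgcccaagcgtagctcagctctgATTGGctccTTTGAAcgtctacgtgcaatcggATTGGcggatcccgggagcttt
Mki67 chr7:135716380-135716579, minus strand: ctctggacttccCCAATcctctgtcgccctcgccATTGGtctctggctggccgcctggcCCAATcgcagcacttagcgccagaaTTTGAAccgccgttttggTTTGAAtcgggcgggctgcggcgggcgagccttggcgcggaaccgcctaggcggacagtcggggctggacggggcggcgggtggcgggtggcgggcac
Mcm5 chr8:75109349-75109508, plus strand: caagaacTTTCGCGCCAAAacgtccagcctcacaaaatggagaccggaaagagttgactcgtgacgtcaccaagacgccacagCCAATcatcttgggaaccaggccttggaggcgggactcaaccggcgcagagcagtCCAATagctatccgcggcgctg
Top2a carries 4 CHR and 5 CCAAT matches in the stretch shown, and Mki67 carries 2 and 3. Cdk1 has all 3 kinds, with 1 CHR, 2 CCAAT and 1 E2F match. Mcm5, a subunit of the replicative helicase, was chosen after its motifs were seen and has 2 E2F matches that overlap each other, 2 CCAAT matches and no CHR match.

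The mitotic promoters were those of the mitotic lists together with the 7 rule genes. Over the 250 bases before the start, and searched on both strands, 37.7% of these 61 promoters held a CHR and 72.1% a CCAAT, with both in 32.8%. The same shares over all 32851 promoters of the table were 17.1%, 33.8% and 6.02%. Of 38 promoters of the replication lists, 60.5% held a CCAAT, 18.4% a CHR and 28.9% an E2F word, the last against 4.92% of the mitotic promoters and 1.86% of all promoters. The mitotic lists with the rule genes matched 56 of 65 genes and the replication lists 31 of 38, and some genes have more than 1 start. Of the 7 rule genes 6 matched. Among these, 4 held a CHR and 5 a CCAAT, and Birc5 held none of the motifs. A match is a description of letters and not a binding site. Of the promoters of the secondary granule genes, whose expression follows another program, 12 of 15 genes matched, and 5 of these held a CHR and 6 a CCAAT.

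To see which lineages the members belonged to, all cells were clustered with the cycle genes and the genes of the rule left out. Cycle genes on none of the lists, such as Pclaf, stayed in, and in the finer of 2 clusterings 137 of the 152 neutrophil-like and 194 of the 238 S100-low monocyte-like members of LI fell in clusters made up mostly of cycling cells. The coarser clustering gives the lineages used here. The members spread over several lineages and the mixture differed between the libraries. In LI, 254 of 442 members (57.5%, 52.7% to 62.1%) fell in a monocyte-like cluster, 152 (34.4%, 30.0% to 39.0%) in a neutrophil-like cluster with Ngp, Camp and Ltf, and 5 (1.13%) in the microglia-like cluster. The 152 were all S100-high, whereas the 254 were 238 S100-low and 16 S100-high cells. In the finer clustering 12 S100-high LI members fell in a cluster led by Fn1, F13a1 and Ccr2. No gene comparison was made for the S100-high monocyte-like members, and whether they are doublets was not tested. In WT, 19 of 46 (41.3%, 27.0% to 56.8%) were microglia-like and 15 (32.6%, 19.5% to 48.0%) monocyte-like. The libraries also differed as a whole. The microglia-like cluster was 80.0% of WT cells and 22.3% of LI cells, and the monocyte-like cluster 1.12% and 20.1%.

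In the monocyte-like and the microglia-like cluster the cycling share was closer between genotypes than in the whole libraries. In the monocyte-like cluster 15 of 79 WT cells (19.0%, 11.0% to 29.4%) and 254 of 1569 LI cells (16.2%, 14.4% to 18.1%) were members. These shares hold for the coarser cluster alone. In the finer clustering the cells led by Fn1, S100a4 and Ccr2 held 1 member among 31 WT cells (3.23%, 0.0816% to 16.7%) and 8 among 918 LI cells (0.871%, 0.377% to 1.71%), and a cluster led by cycle genes held 9 of 17 WT cells (52.9%) and 198 of 361 LI cells (54.8%) as members. In the coarser microglia-like cluster the shares were 0.338% of 5626 cells (0.203% to 0.527%) and 0.287% of 1743 cells (0.0932% to 0.668%). These rest on 19 and 5 members, and leaving out the highest doublet scores takes the 5 to 2. The finer clustering moved 15 of the 19 WT and 2 of the 5 LI members into a cluster led by the border macrophage genes Pf4 and Mrc1, which left 4 of 5498 WT cells (0.0728%, 0.0198% to 0.186%) and 2 of 1712 LI cells (0.117%, 0.0142% to 0.421%) as members in the microglial clusters. The neutrophil-like cluster held 60 WT cells with 1 member (1.67%, 0.0422% to 8.94%) and 1637 LI cells with 152 members (9.29%, 7.92% to 10.8%), so that its WT share is hardly bounded. The intervals of the genotypes overlapped in each of these 3 clusters, which with 1 library each does not show that the shares are equal. After thinning to 2000 UMIs the monocyte-like shares were 13.2% (6.49% to 22.9%) and 11.6% (10.1% to 13.3%), and the neutrophil-like shares were 0 of 60 cells in WT (up to 5.96%) and 5.40% in LI (4.35% to 6.61%). A further cluster of mature neutrophil-like cells, 23.7% of the LI library, held 1 member among 1849 cells (0.0541%).

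**Figure D2:**
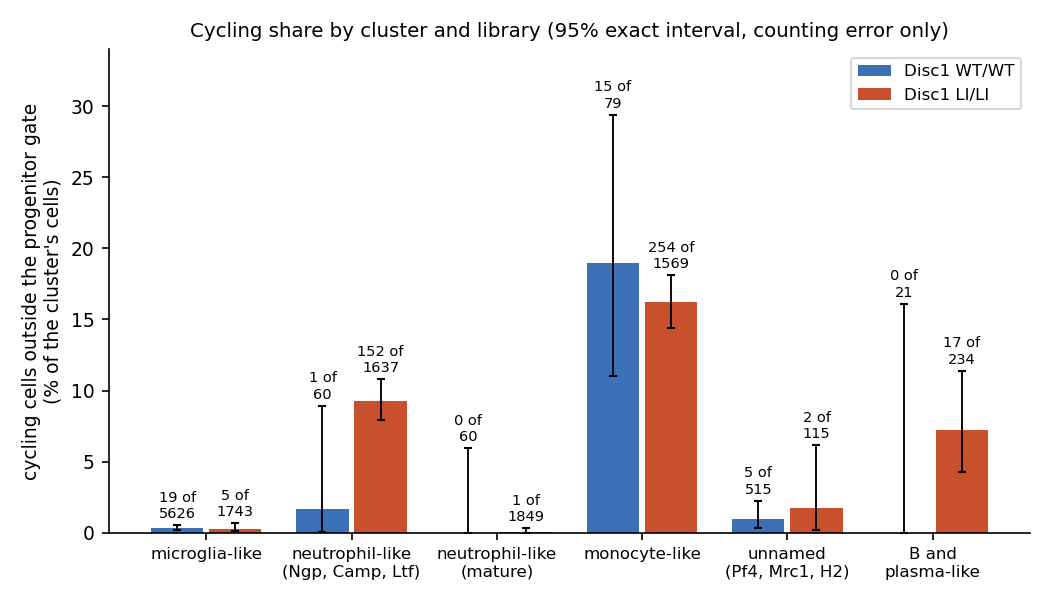
Bars give the percentage of a cluster's cells that were cycling members, for each cluster and library, starting at 0, with 95% exact binomial intervals. The monocyte-like cluster stands highest among the named clusters in both libraries (19.0% and 16.2%), the microglia-like cluster stays below 1% in both, and the mature neutrophil-like cluster lies near 0.

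Marker levels, beyond the S100 genes that the rule used, differed between the S100-high and the S100-low members. The 10 other neutrophil markers summed to 138588 CPM in the 173 LI S100-high members and 629 CPM in the 269 LI S100-low members, where 231 cells still had UMIs of at least 3 of them. In the S100-high members T cell markers summed to 4.11 CPM with Cd3e, Cd3g, Cd4 and Cd8a at 0 UMIs, and all 5 neuronal markers were at 0. The 12 monocyte markers summed to 7678 CPM in the S100-low members and 12020 CPM in the S100-high members, of which Chil3, which neutrophil precursors also express, made up 2025 and 10861 CPM. The other 11 summed to 5653 CPM in the S100-low members, with at least 3 in 249 of 269 cells, and 1159 CPM in the S100-high members, with at least 3 in 106 of 173. Among the 45 WT S100-low members, 44 had at least 3 microglial markers (summed level 18612 CPM), 33 at least 3 dendritic and antigen-presenting markers (9621 CPM) and 15 at least 3 monocyte markers (3447 CPM). In the non-cycling WT microglia-like cells, at a median of 4318 UMIs, 49.8% had at least 3 of the dendritic and 0.196% at least 3 of the monocyte markers. The microglial gene C1qa had UMIs in 11 of the 15 WT monocyte-like members at 821 CPM, 52.0% of them from 1 cell, and the part of free microglial RNA in these counts was not tested.

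The name myeloid did not hold for every member. In LI 17 members, 3.85% of its members, fell in a B and plasma-like cluster. They made up 7.26% (4.29% to 11.4%) of the 234 cells of that cluster. The 10 B and plasma markers summed to 38138 CPM in these 17 cells, each of which had UMIs of at least 3, and to 310 CPM in the 255 LI S100-low members outside the cluster, against 298 CPM in the non-cycling LI microglia-like cells. Of these 255 members 22 had UMIs of at least 3 of the markers (8.63%, 5.49% to 12.8%), at a median of 13378 UMIs, and of the microglia-like cells 2.82% (2.09% to 3.71%) at 3807 UMIs. The 17 cells also held 7224 CPM of neutrophil markers, and the group of 17 B and plasma-like cells found by clustering the members alone had a median doublet score of 0.0985. Whether they are doublets was not tested. In the WT S100-low members the 10 B and plasma markers summed to 188 CPM, against 230 CPM in the non-cycling WT microglia-like cells. Of the 188 CPM Ighm made up 166 CPM, and Cd79a and Igkc were at 0. CD11b, the marker of the sort, is a myeloid integrin, and how B-lineage cells came to be in the gate was not tested.

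Clustering the members alone, a step added after the data were seen, gave 11 groups. Neutrophil-like groups of 83 and 51 cells were led by Fcnb, Ngp and Camp and by G0s2, Ly6g and Olfm4. Monocyte-like groups of 76 and 66 cells shared Fn1, an extracellular matrix protein, among their leading genes, and a group of 68 cells led by Fabp5 and Tifab had too few monocyte markers among its leading genes for a name. A dendritic-like group of 25 LI cells was led by Cd209a, a lectin of monocyte-derived and conventional dendritic cells. The microglia-like group was the only one with more WT than LI cells, 29 and 16, and carried all 12 microglial markers among its higher genes. A group of 19 cells, 6 of them WT, was led by H2-Aa, Cd74 and Pf4 and stayed unnamed between dendritic cells and border macrophages. Groups of 20 and 18 cells mixed neutrophil genes with basophil genes (Prss34, Mcpt8) or were led by hemoglobin genes, which made up at least 1% of UMIs in only 4 of the 18 cells. Their median doublet scores were 0.135 and 0.0906, against 0.0235 in the larger neutrophil-like group, and whether they are doublets was not tested. The remaining group was 17 B and plasma-like cells, all from LI.

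The first comparison within a lineage was between the 152 neutrophil-like S100-high members of LI and the 1455 S100-high cells of the same cluster that had fewer than 3 cycle genes and were also outside the progenitor gate. Of 1097 genes with at least 100 CPM on either side, 207 (18.9%) were at least 2-fold higher in the members and 208 (19.0%) at least 2-fold lower, with a median log2 ratio over all genes near 0 (0.00477). Ratios are log2 ratios of summed CPM, members over other cells. The members had a median of 18109 UMIs and 2779 genes per cell, the other cells 6385 UMIs and 1318 genes. At 2000 UMIs per cell the medians were 639 genes (quartiles 611 and 678) and 578 genes (549 and 615). With every cell thinned to 2000 UMIs, 88 members remained by the rule, and 283 genes were at least 2-fold higher and 226 lower. A gene that reaches 100 CPM on 1 side alone leans to that side, so the counts are descriptions, and for the granule, ribosomal and immediate early lists the summed level of all genes, which needs no minimum, is given as well.

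Cycle genes made up 45 of the 207 genes that were higher in the neutrophil-like members. Of the genes on the cycle lists, 50 reached 100 CPM, and 2 of these were at least 2-fold lower. All 11 tested genes of the kinesin and spindle list were higher, with a median log2 ratio of 5.39, as were all 5 of the kinetochore list (6.77), all 11 clustered histone genes (5.69), all 7 of chromosome condensation (2.65) and all 4 of the replication fork list (5.34). The rule chose the cells by 7 genes of this program, so these ratios describe the choice and support nothing. Stmn1, which destabilizes microtubules, stood at 1173 CPM in members and 27.9 CPM in other cells (log2 5.40, 5.22 to 5.58), and Hmgb2, a chromatin protein, at 5026 and 1424 CPM. Hist1h1b, a linker histone, reached 1444 against 6.06 CPM. Outside the lists the genes with the highest ratios included Esco2, which establishes sister chromatid cohesion (107 CPM against 0.0977 CPM, 1 UMI in the other cells, log2 10.10, 7.61 to 15.40), Pclaf, a PCNA partner (662 and 4.30 CPM), and the histone chaperone Asf1b (174 and 1.08 CPM). The hemoglobin genes Hbb-bs, Hbb-bt, Hba-a1 and Hba-a2 also ranked there, and 99.5% of their UMIs came from 1 of the 152 cells.

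Secondary granule genes were high in both the cycling members and the other cells of the cluster. All 15 genes of this list were tested, 3 were at least 2-fold higher in members and 1 lower, beside 18.9% and 19.0% of all genes tested, and the median log2 ratio was 0.16. The summed level of the list was 186108 CPM in members and 125631 CPM in other cells. Camp, the cathelicidin precursor, stood at 62023 and 32773 CPM (log2 0.92) and Ngp, a neutrophil granule protein, at 60209 and 37081 CPM (0.70). Lactoferrin (Ltf) was at 5017 and 5835 CPM (−0.22) and the iron-sequestering Lcn2 at 19524 and 17442 CPM (0.16). The 3 genes past 2-fold higher were Fcnb, a ficolin of the innate immune system (752 and 77.9 CPM, log2 3.27, 3.15 to 3.39), Chil3, a chitinase-like protein (11640 and 4173 CPM, 1.48), and Orm1, an acute-phase protein (396 and 171 CPM). The gene past 2-fold lower was Ifitm6 (723 and 2389 CPM).

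Tertiary granule and mature neutrophil genes showed the opposite picture. Of 14 tested, 12 were at least 2-fold lower in the members and none was higher, beside 19.0% and 18.9% of all genes tested. The median log2 ratio was −2.23, with summed levels of 4997 CPM in members and 31860 CPM in other cells. Retnlg, a resistin-like secreted protein, stood at 1223 and 21659 CPM (log2 −4.15, −4.19 to −4.10). The collagenase Mmp8 was at 78.1 and 2447 CPM, and since the LI monocyte-like members had 97.1 CPM and the non-cycling LI microglia-like cells 15.6 CPM, no ratio is read from the members' low level. The gelatinase Mmp9 was at 105 and 1282 CPM (−3.61). Cxcr2, the chemokine receptor that draws neutrophils out of the marrow, was at 19.7 and 241 CPM (−3.61). Csf3r, the receptor for granulocyte colony-stimulating factor, was at 34.5 and 115 CPM. The LI monocyte-like members had 27.9 CPM of it and the non-cycling LI microglia-like cells 127 CPM, so no ratio is read for Csf3r either. Mmp8 and Csf3r are among the 12 genes counted as lower and enter the median. Pglyrp1, a peptidoglycan-binding granule protein, was among the 2 not past 2-fold, at 2611 and 2844 CPM. The surface marker Ly6g stood at 365 and 1075 CPM (−1.56).

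How far apart the members and the other cells stood depended on which cells they were set against. The finer clustering put 137 of the 152 members in a cluster with 9 of the other cells, and 15 members in a neighboring cluster led by Ltf, Ngp and Camp with 649. Against all 1455 other cells, 208 of 1097 genes tested were at least 2-fold lower. Against these 658, nearly all of the neighboring cluster, 82 of 1001 were, and 6 of 8 tertiary granule genes, Mmp8 among them. Retnlg was then at 7667 CPM in the other cells (log2 −2.65) and Mmp8 at 1484 CPM. Camp, at 48193 CPM, was closer (0.36), Lcn2 turned to −0.16 and Csf3r was at 65.5 CPM in the other cells. The median of the 15 secondary granule genes turned from 0.16 to −0.16. Fcnb (752 and 141 CPM, 2.42) and Ifitm6 (−1.96) were still past 2-fold, and Chil3 (0.80) and Orm1 (0.39) were not.

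Levels of transcription factors of the granulocyte lineage differed in both directions. Cebpe, required for secondary granule formation, stood at 632 CPM in members and 246 CPM in other cells (log2 1.36, 1.28 to 1.45), and Cebpb, which acts in mature and emergency granulopoiesis, at 470 and 1715 CPM (−1.87, −1.95 to −1.79). The myeloid master factor Spi1 was at 411 and 513 CPM. Of the 7 factors tested, 2 were past 2-fold higher (Cebpe, and Id2 at 103 and 36.3 CPM) and 3 lower (Cebpb, Klf2 at 96.4 and 266 CPM, and Nr4a1 at 53.5 and 110 CPM), beside 18.9% and 19.0% of all genes tested. Against the finer-cluster cells only Id2 (1.18) and Klf2 (−1.29) were past 2-fold, and Cebpe stood at 632 and 377 CPM (0.75), Cebpb at 470 and 893 CPM (−0.93) and Nr4a1 at 53.5 and 107 CPM. Among cycle inhibitors the antiproliferative genes Btg1 (206 and 678 CPM) and Btg2 (126 and 559 CPM) were past 2-fold lower, and the kinase inhibitor Cdkn2d, at 367 and 246 CPM, was not past 2-fold. Id2, Klf2, Nr4a1, Fcnb, Orm1 and Ifitm6 were named after their values were seen.

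Of 80 cytosolic ribosomal protein genes tested, 14 were at least 2-fold higher in the members, a share near that of all genes tested (18.9%), and none was lower, with summed levels of 48625 and 33456 CPM. The 10 immediate early genes summed to 1297 CPM in members and 4358 CPM in other cells. Fos stood at 469 and 1698 CPM and Junb at 146 and 815 CPM, in cells dissociated with a transcription blocker. Outside the lists the genes with the lowest ratios included Thbs1, the matrix glycoprotein thrombospondin (44.0 and 860 CPM, log2 −4.29), S100a6, a calcium-binding protein (397 and 4401 CPM, −3.47), and the cytokine Osm (48.2 and 498 CPM). Ms4a3, a marker of granulocyte-monocyte progenitors, was at 162 CPM in members and 10.1 CPM in other cells (log2 4.01), and the granule proteoglycan Srgn, of the same primary granule list, at 146 and 856 CPM (−2.55). Csf1r (21.8 and 132 CPM) and Cx3cr1 (26.4 and 179 CPM), receptors that microglia carry, were lower in the members together with the microglial complement gene C1qa (135 and 859 CPM), and the part of microglial RNA in these values was not tested. Ifitm3, the only interferon-list gene tested, was at 528 and 1226 CPM (−1.21).

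**Figure D3:**
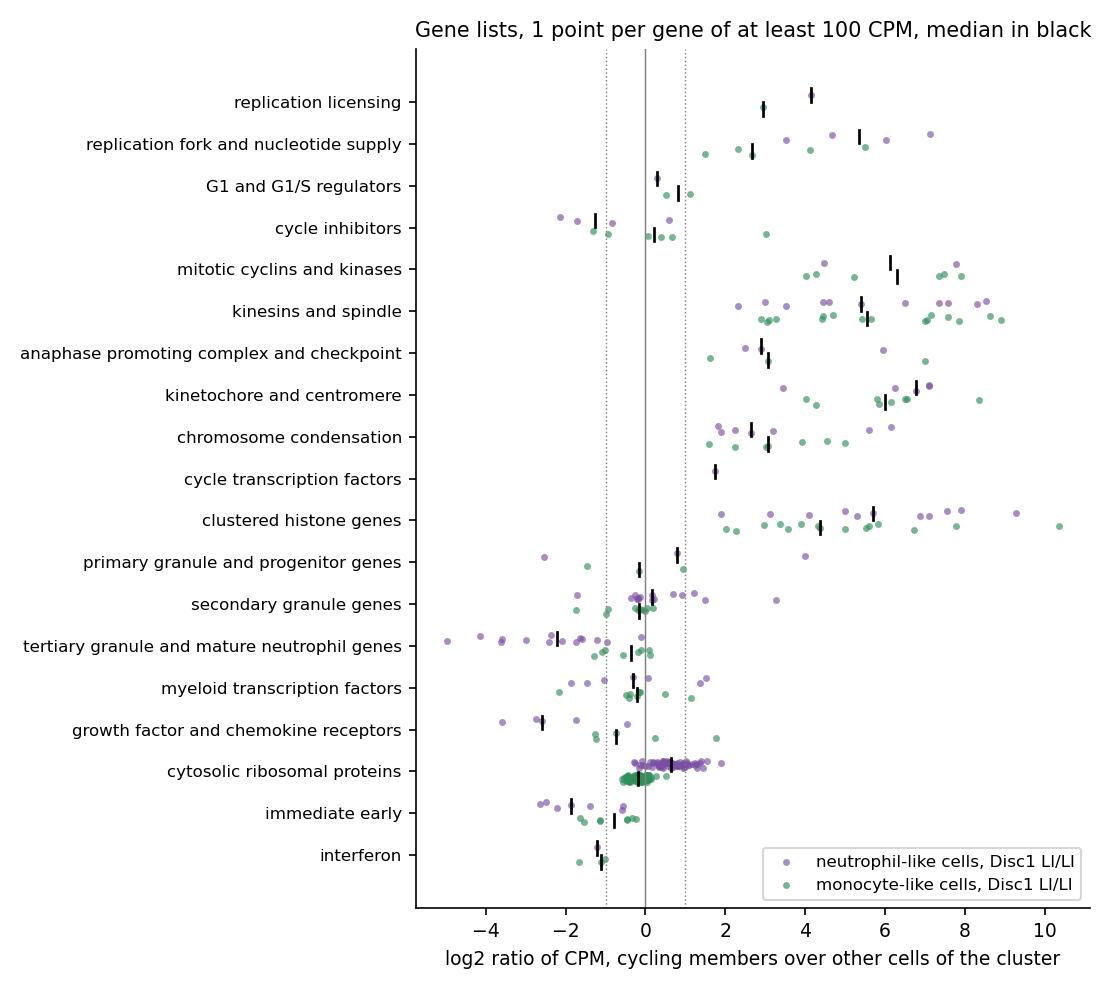
Each point is a gene of at least 100 CPM on either side, drawn by its log2 ratio of CPM between cycling members and other cells of the same cluster in LI, by gene list, for the neutrophil-like and the monocyte-like cluster, with black marks for medians. The cycle lists lie to the right in both clusters (kinesins and spindle 5.39 and 5.54), the tertiary granule list lies left in the neutrophil-like cluster (−2.23) and nearer to 0 in the monocyte-like cluster (−0.36).

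The neutrophil-like members were also set beside the cycling progenitors, the other neutrophil-like cells and the mature neutrophil-like cells of LI. The progenitors are not cells of this lineage alone, since 90 of the 201 fell in the monocyte-like cluster, 90 in an unnamed cluster led by progenitor and basophil genes and 20 in the neutrophil-like cluster. Mpo, which makes hypochlorous acid, was at 4185 CPM in the 201 cycling progenitors, 14.1 CPM in the members, 9.19 CPM in the other neutrophil-like cells and 8.55 CPM in the mature neutrophil-like cluster, an order that the gate itself sets. Fcnb was at 607, 752, 77.9 and 3.42 CPM in that order, so that its high level spanned progenitors and members. Camp was at 8655, 62023, 32773 and 875 CPM, and Chil3 at 1746, 11640, 4173 and 119 CPM, both highest in the members. Ltf was at 248, 5017, 5835 and 116 CPM, with the members and the other neutrophil-like cells closest to each other. Retnlg was at 356, 1223, 21659 and 49125 CPM and Cxcr2 at 8.46, 19.7, 241 and 853 CPM, both lowest in the progenitors and highest in the mature cells.

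Regulators of the lineage and the cycle also differed among these groups. Cebpe was highest in the members, at 246, 632, 246 and 19.0 CPM. Gfi1, a repressor of monocyte genes, was at 61.5, 16.5, 4.40 and 0.190 CPM, where the last value rests on 1 UMI. Myb, a factor of immature blood cells, was at 122, 27.1, 9.19 and 2.09 CPM. The cyclin-dependent kinases of the early cycle were far higher in the cycling progenitors than in the cycling members, with Cdk6 at 121 and 17.2 CPM and Cdk4 at 256 and 28.9 CPM. Ccnd3, a D-type cyclin, was at 310, 433, 352 and 279 CPM, nearly level, whereas Ccnd2 was at 26.9, 1.06, 0.391 and 6.65 CPM. Stmn1 at 1383 and 1173 CPM and the ribonucleotide reductase subunit Rrm2 at 246 and 279 CPM were close between cycling progenitors and members, while Mcm5 was at 119 and 51.4 CPM. Gfi1, Myb, Cdk6, Cdk4, Ccnd2 and Mcm5 were chosen for these 4 groups after their values were seen.

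**Figure D4:**
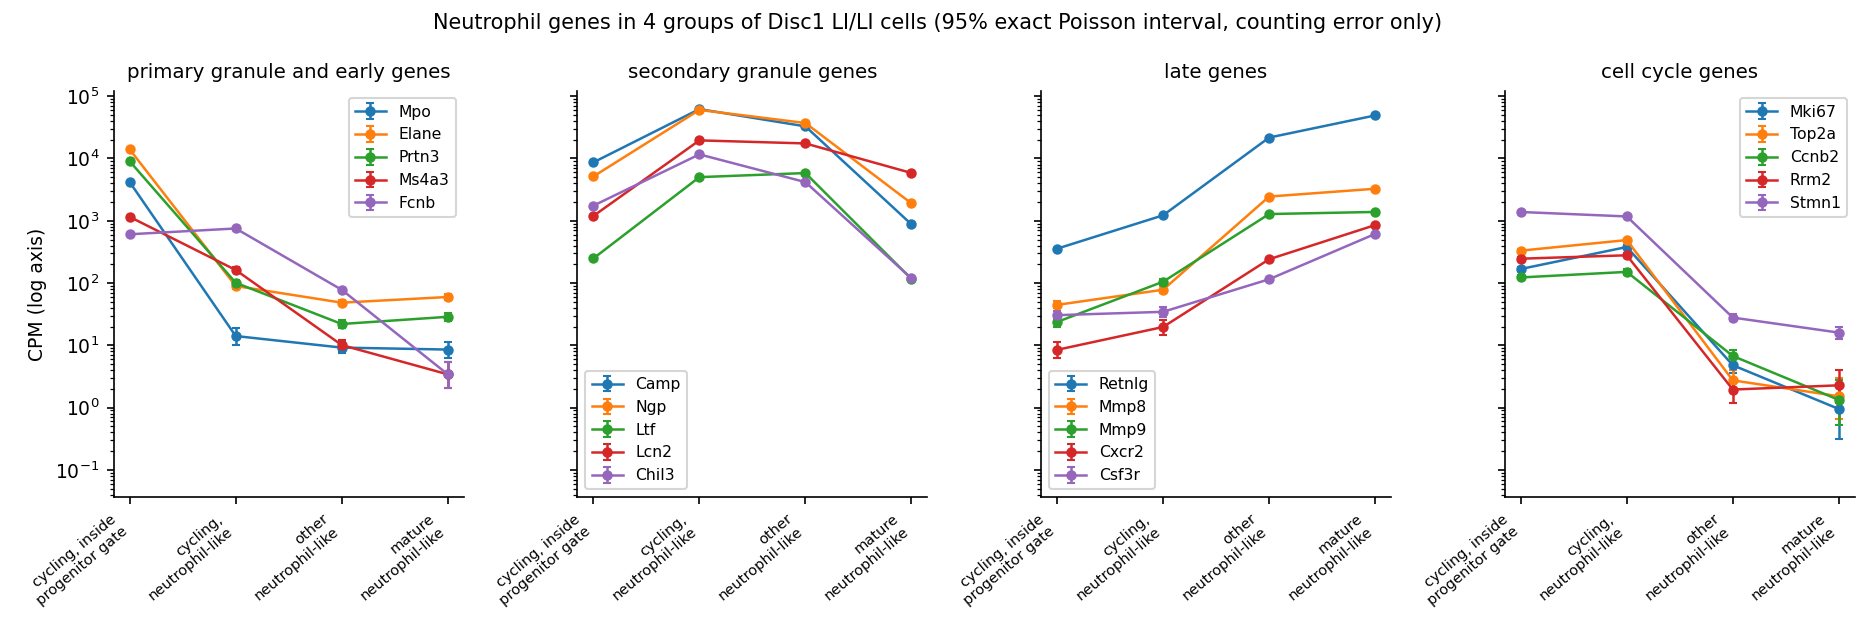
Level in CPM (log axis, 95% exact Poisson intervals) of primary granule and early genes, secondary granule genes, late genes and cycle genes in 4 groups of LI cells, from cycling progenitors to mature neutrophil-like cells. Camp peaks in the cycling neutrophil-like members at 62023 CPM, Mpo stands at 4185 CPM in the progenitors and 14.1 CPM in the members, and Retnlg ranges from 356 CPM in the progenitors to 49125 CPM in the mature cells.

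The monocyte-like comparison in LI set 238 S100-low members against 1162 other S100-low cells of the cluster with fewer than 3 cycle genes. The finer clustering separated these sides, with 194 members and 43 other cells in the cluster led by cycle genes, 36 and 157 in the one led by Cd209a, and 8 and 909 in the one led by Fn1, so the comparison is in large part between finer clusters. Of 1657 genes tested, 183 (11.0%) were at least 2-fold higher in the members and 96 (5.79%) at least 2-fold lower, with a median over all genes of 0.0853. The members had a median of 13462 UMIs and 3309 genes, the other cells 6635 UMIs and 2036 genes, and at 2000 UMIs per cell 1004 (971 and 1041) and 935 (899 and 967) genes. Thinned in that way, 167 members remained, with 210 genes higher and 99 lower. Cycle-list genes made up 63 of the 183 higher genes, out of 69 tested. All 16 tested kinesin and spindle genes, all 15 histone genes, all 8 kinetochore genes and all 6 mitotic cyclins and kinases were past 2-fold, which again describes the choice of cells. Cyclin A2 (Ccna2) stood at 223 and 0.868 CPM, Tubb5, a tubulin, at 2314 and 273 CPM, and Hmgb2 at 5134 and 633 CPM.

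Among the genes at lower levels in the cycling monocyte-like cells were Cd74, 3 MHC class II genes of the dendritic marker list, the 3 interferon-list genes tested and Apoe, beside 5.79% of all genes tested. Cd74, the invariant chain that chaperones MHC class II, stood at 924 CPM in members and 4602 CPM in other cells (log2 −2.32, −2.37 to −2.26) and was detected in 37.8% of members. The class II genes H2-Aa (386 and 1409 CPM), H2-Ab1 (258 and 1034 CPM) and H2-Eb1 (136 and 920 CPM) were likewise lower, by more than 2-fold each, whereas H2-DMa (200 and 329 CPM) and H2-DMb1 (152 and 297 CPM), which load peptide onto class II and were named after their values were seen, were not past 2-fold. Apoe, a lipid carrier of differentiated macrophages, had the lowest ratio outside the lists, at 54.8 and 1384 CPM (−4.66, −4.89 to −4.44). All 3 interferon-list genes tested were past 2-fold lower, with the antiviral membrane protein Ifitm3 at 3142 and 6801 CPM and Irf7 at 43.0 and 136 CPM among them. In the finer clustering 44 of the 1162 other cells and 0 of the 238 members fell in a cluster led by Ifit3 and Irf7. The part of these cells in the interferon ratios was not tested. Csf1r, the receptor for macrophage colony-stimulating factor, was at 85.3 and 206 CPM (−1.27). Cx3cr1 (76.7 and 181 CPM), C1qa (139 and 417 CPM) and P2ry12 (26.9 and 76.4 CPM), which microglia carry, were lower beside it, and the part of microglial RNA in these values was not tested. The cluster also held cells with dendritic genes, of which the finer clustering set apart 199 LI cells led by Cd209a and H2-Aa, 36 of them members. Without these, among 202 members and 1005 other cells, Cd74 was at 120 and 1835 CPM. Since the LI S100-high members had 109 CPM of Cd74, no ratio is read from the 120 CPM. Apoe was then at 64.2 and 1602 CPM (−4.64) and Ifitm3 at 3498 and 7242 CPM (−1.05). The other genes with the lowest ratios included Sirpb1c, Slfn5, Hpgd and Ly6d, and 68.0% of the Ly6d UMIs in members came from 1 cell.

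Classical monocyte markers stood closer in the members and the other cells. Ly6c2, the surface antigen of inflammatory monocytes, stood at 1705 CPM in members and 1255 CPM in other cells (log2 0.44), F13a1, coagulation factor XIII, at 1093 and 893 CPM (0.29) and fibronectin (Fn1) at 798 and 778 CPM (0.04, −0.03 to 0.10). Ccr2, the receptor that brings monocytes out of the marrow, was at 582 and 974 CPM (−0.74), and the lysozyme Lyz2 at 15229 and 29993 CPM (−0.98), neither past 2-fold. Cxcr4, the receptor that retains blood cell precursors in the marrow, was the 1 receptor past 2-fold higher, at 144 and 42.6 CPM (1.76, 1.55 to 1.97), and was detected in 72.7% of members. Klf4, a factor of monocyte differentiation, was at 153 and 69.0 CPM (1.15) and the cycle kinase Cdk4 at 135 and 62.7 CPM (1.11). Of the cycle inhibitors Cdkn2c was past 2-fold higher (123 and 15.0 CPM) and Btg1 past 2-fold lower (386 and 962 CPM). None of 80 ribosomal protein genes was past 2-fold in either direction. Of 8 immediate early genes tested 4 were lower, among them Junb (735 and 1636 CPM), and the 10 genes of the list summed to 3970 and 6812 CPM. Of 10 secondary granule genes 1 was lower, Ifitm6 (206 and 692 CPM), and the list summed to 21867 and 37660 CPM. Of 8 tertiary granule and mature neutrophil genes 3 were lower, with Ccl6 at 665 and 1626 CPM, Ifitm2 at 909 and 1943 CPM and Il1b, which reached 100 CPM in the other cells alone, at 89.2 and 180 CPM, and the list summed to 3051 and 5304 CPM. Over all genes tested 5.79% were lower. Klf4, Cdkn2c, Ifitm6 and Il1b were named after their values were seen.

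Neutrophil RNA was present in cells of other kinds throughout the LI library. S100a8 had UMIs in 90.7% of the S100-low members at 580 CPM, and in 71.6% of the non-cycling microglia-like cells at 315 CPM, with median depths of 13218 and 3807 UMIs. In WT microglia-like cells it had UMIs in 6.28% at 13.6 CPM. Camp stood at 108 CPM in the LI monocyte-like members and 144 CPM in the LI microglia-like cells, so its level in the former is at background. Ly6c2 differed, at 1705 and 16.2 CPM. Elane and Prtn3 in the monocyte-like members, at 118 and 215 CPM, are bounded by the gate.

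The 15 monocyte-like members of WT are too few for counts of genes, and each value rests on few cells. Against 58 other cells, Apoe was at 42.2 and 1321 CPM (log2 −4.97), Cd74 at 8727 and 14493 CPM (−0.73) and Ifitm3 at 1901 and 3211 CPM (−0.76). Cxcr4 was at 127 and 70.7 CPM (0.84, 0.07 to 1.59), Klf4 at 207 and 121 CPM and Ly6c2 at 873 and 553 CPM. These 6 genes were picked from those described for LI, and their signs were those of the LI cells. Whole lists went both ways. The interferon list summed to 2084 and 3726 CPM (−0.84), against −1.15 in LI. The immediate early list summed to 5779 and 6009 CPM (−0.06, −0.15 to 0.04), against −0.78 in LI. Of the Cd74 UMIs in these members, 39.0% came from 1 cell. Without the Cd209a-led cells, 10 members and 37 other cells were left, and Cd74 was at 25.7 and 3349 CPM, the first on few UMIs.

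Microglia-like members were the main kind in WT by the main clustering, and 19 of them could be set against 5607 other microglia-like cells. In the 15 that the finer clustering put with border macrophages, P2ry12 stood at 1761 CPM with UMIs in all 15 cells and Pf4 at 30.6 CPM in 2 cells, whereas the 500 other WT cells of that finer cluster had 1498 CPM of Pf4 and 17000 CPM of Cd74, against 42.8 CPM of Cd74 in the 15. Cyclin B1 (Ccnb1) stood at 203 and 0.223 CPM, the spindle midzone protein Prc1 at 770 and 0.483 CPM and Stmn1 at 2415 and 47.8 CPM. Identity genes of microglia were retained at somewhat lower levels. The purinergic receptor P2ry12, through which microglia sense ATP and ADP, was at 1931 and 4074 CPM (log2 −1.08, −1.22 to −0.94), the fractalkine receptor Cx3cr1 at 2231 and 3449 CPM (−0.63), Tmem119 at 876 and 1143 CPM (−0.38), the complement component C1qa at 8228 and 10459 CPM (−0.35) and the microglial factor Sall1 at 213 and 330 CPM (−0.63). All 5 were detected in at least 84.2% of the 19 cells.

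Several kinase inhibitors stood high in the same microglia-like members. Cdkn1a, the p53 target that inhibits cyclin-dependent kinases, stood at 624 CPM in members and 21.7 CPM in other cells (log2 4.85, 4.56 to 5.13), with UMIs in 16 of the 19 cells spread over the cells. Cdkn2c, an inhibitor of Cdk4 and Cdk6, was at 223 and 6.57 CPM (5.08, 4.58 to 5.56) in 15 cells. Cdkn2d was at 184 and 12.3 CPM and Rbl1, a relative of the retinoblastoma protein, at 140 and 17.6 CPM. The antiproliferative genes Btg1 (247 and 373 CPM) and Btg2 (232 and 460 CPM) stood lower in the members. Cdkn2a was at 62.9 and 0.520 CPM and was found in 7 cells. Cdkn1a was at 195 and 148 CPM in the LI monocyte-like comparison (0.39), where Cdkn2c, as given above, was past 2-fold higher in the members. The 5 microglia-like members of LI had a median doublet score of 0.323, against 0.0364 in the other microglia-like cells of that library, and no gene levels are given for them. Cdkn2a, Cdkn2d and Rbl1 were named after their values were seen.

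Cycling cells on either side of the progenitor gate differed in how far the replication genes and the mitotic genes were expressed. Levels were summed per cell over 38 replication genes and 53 mitotic genes, the latter without the rule genes, the tubulins and Stmn1. Replication genes exceeded mitotic genes in 111 of 201 cycling progenitors of LI (55.2%, 48.1% to 62.2%), in 21 of 152 neutrophil-like members (13.8%, 8.76% to 20.3%) and in 19 of 238 monocyte-like members (7.98%, 4.87% to 12.2%). In WT they did so in 4 of 15 monocyte-like members (26.7%, 7.79% to 55.1%). In the other neutrophil-like cells of LI, where few UMIs of either kind were found, the share was 13.1% (11.4% to 15.0%), close to that of the members. In the other monocyte-like cells it was 23.9% in LI (21.5% to 26.5%), above that of the LI members, and 32.8% in WT (21.0% to 46.3%). In the other microglia-like cells of WT it was 37.5% (36.3% to 38.8%), against 26.3% (9.15% to 51.2%) in their members. At 2000 UMIs per cell the shares of the LI groups of cycling cells were 55.3%, 14.5% and 11.2%, and that of the WT monocyte-like members 28.6%. The cells of all groups were selected by the same 7 cycle genes, most of them mitotic, so that the shares hold for cells chosen in that way, and the gate itself is part of the choice. These intervals cover the counting of cells of 1 library and the groups share it.

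The replication genes summed to a median of 3705 CPM in the cycling progenitors, 1404 CPM in the neutrophil-like members and 1969 CPM in the monocyte-like members. The mitotic genes summed to 3196, 5248 and 8244 CPM, and the clustered histone genes to 2253, 6842 and 9539 CPM. In the 19 WT microglia-like members the medians were 3085 CPM for replication and 11460 CPM for mitotic genes, with replication above mitotic genes in 5 cells. Median levels of non-cycling neighbors were far below, at 0 and 199 CPM in the other neutrophil-like cells. Median depths were 26258 UMIs in the progenitors, 18109 in the neutrophil-like and 13462 in the monocyte-like members.

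**Figure D5:**
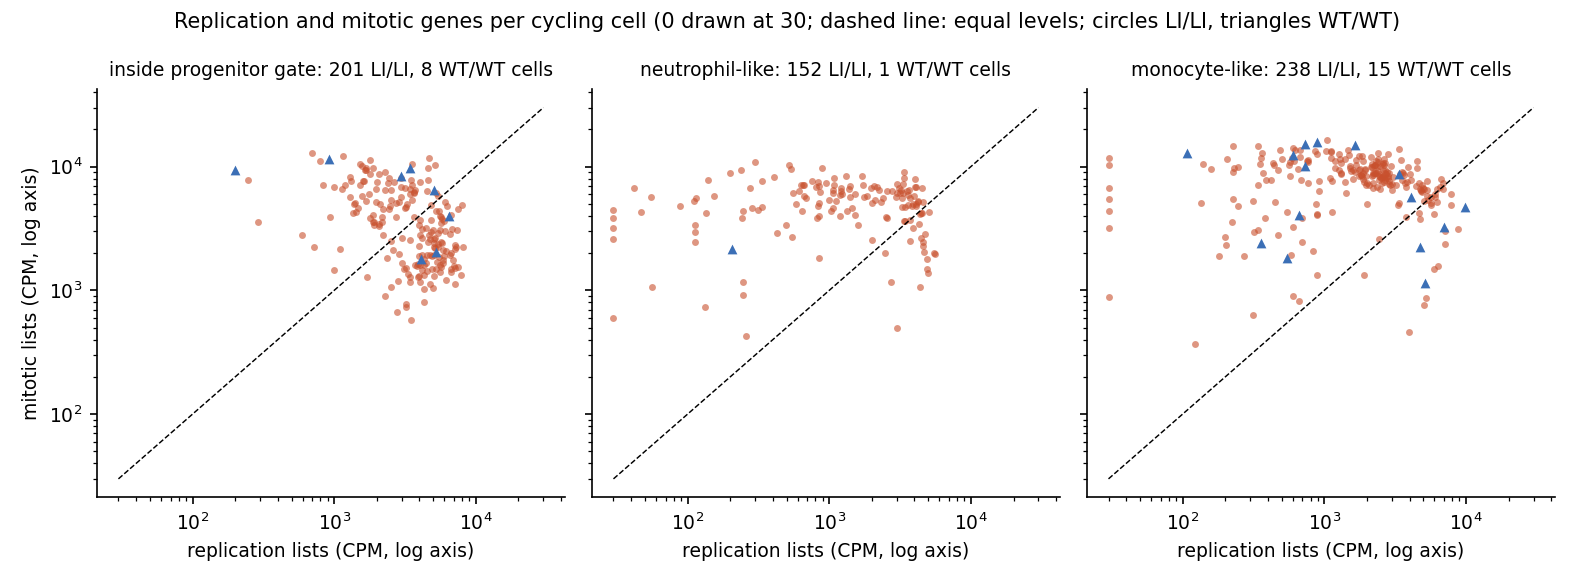
Each point is a cycling cell, by its summed CPM over the replication genes (horizontal, log axis) and the mitotic genes (vertical, log axis), for cycling progenitors, neutrophil-like and monocyte-like members, with a dashed line at equal levels. The progenitors lie on both sides of the line (55.2% of LI cells below it), whereas most neutrophil-like and monocyte-like members lie above it (13.8% and 7.98% of LI cells below).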

How the data were processed

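Cells in a CD45-low, CD11b-positive gate were measured by droplet 3′ RNA sequencing in 1 library per genotype. The authors mapped reads to mouse mm10 with STAR and counted molecules with Cell Ranger (version 6.1.2 in the file headers), with Seurat 3.0.1 named in the methods, and deposited raw counts of UMIs per gene and barcode for 32285 genes. Which chip version each library used is not given in the sources used here. The files held 7038 and 7834 barcodes (33601957 and 47731571 UMIs), 14872 in all, more than the number of cells given in the methods. Filtering left out 6 WT and 17 LI barcodes.

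From these counts, the rule (3 of 7 cycle genes, proteases under 0.2%, S100 limit 3%) was applied per cell. Clustering used scanpy 1.11.5 on log-normalized counts of 2000 variable genes, 25 components, 20 neighbors and resolution 0.3, with 220 cycle and rule genes left out. Clusters were named from fixed marker lists, with the way of scoring them set after the clusters were seen. Doublets were not removed, and Scrublet scores were kept as a value. CPM are summed counts per 1000000 of a group's UMIs, with exact Poisson, Clopper-Pearson and conditional binomial intervals, all at 95%. There are no tests, since each genotype is 1 library. Genes with at least 100 CPM on either side counted as past 2-fold by their ratio. Members and lists were chosen with earlier results of these data known. Lists of genes and of alternatives were written down with those results in view, and support nothing on their own.

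The text names the rule genes, the markers, up to 4 genes per list and comparison by UMIs, and the 10 highest and lowest ratios outside the lists, with exceptions marked where they stand. A few genes that the rule takes in are not reported here. No count of genes between the members of the genotypes was made, since at most 21 members stood on the smaller side of any lineage where 50 were required. In data simulated from the neutrophil-like groups over 851 genes, 95.8% of intervals held the true ratio and 100% of 200 changed genes passed 2-fold. The simulated counts were Poisson counts, the model that the intervals assume, and every planted change lay beyond 2-fold. Both results were therefore set by the simulation. They check the calculation alone and not the spread of counts between cells. Alternatives changed the cell filter, the cycle gene number, the limits, depth, doublets, hemoglobin, scaling, minimum level and clustering. Python 3.11.15, scipy 1.17.1 and edgeR 4.0.16 (TMM factors only) were used. Promoters came from RefSeq GRCm38.p6 and gene coordinates from GENCODE on the same build.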

Additional observations from a re-analysis of the deposited data

How the results depend on the processing

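Sequencing depth, cell number and 1 library per genotype limit all values. No paired analysis was possible because each genotype is 1 library, and no replicate could be left out. The share of LI cells that are members, 5.65%, was 7.62% among cells of at least 1000 genes, 6.81%, 5.14% and 4.59% with at least 2, 4 and 5 cycle genes, 6.42% with proteases under 0.5%, 8.23% with no protease limit and 4.07% after thinning to 2000 UMIs. For WT, 0.654% became 0.427% with 5 genes and 0.420% after thinning. Its S100-high share, 2.17%, rests on 1 cell and was 0 with at least 4 or 5 genes and after thinning. The LI S100-high share moved by less than its interval under all 16 alternatives.

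Counts of genes past 2-fold depended mainly on the minimum level. In the neutrophil-like comparison 207 higher genes became 403 at 50 CPM and 3059 with no minimum and 0.5 counts added, and 208 lower genes became 371 and 2595. They were 82 under finer clustering and 322 with S100, hemoglobin and mitochondrial genes left out of the totals. In the monocyte-like comparison 183 higher genes became 318 and 2088, and 96 lower genes 157 and 1616. The remaining alternatives kept the counts within 1.5 times: 19 for higher and 17 for lower genes in the neutrophil-like cells, and 19 for each direction in the monocyte-like cells. TMM scaling shifted every log2 ratio by −0.10 in the first and −0.07 in the second. Chosen after the data were seen were other cells with 0 cycle genes, members assigned by their own clustering, the microglia-like and monocyte-like shares by finer clustering, monocyte markers without Chil3, monocyte-like genes without the Cd209a-led cells, and members without the basophil and hemoglobin groups.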
